A study of Homo sapiens with 6 samples.

Results

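The polyamine genes described here are 10 of the 61806 genes in the deposited expression table: SAT1, ODC1, OAZ1, OAZ2, AZIN1, AMD1, SRM, SMS, DHPS and DOHH. They were chosen by symbol for their place in polyamine metabolism, and in part because the SAT1 estimate was lower in one group, so the SAT1 difference is given below as a value without a test. RNA was sequenced from MG63 cells, an established human osteosarcoma line, in 2 groups of 3 biological replicates. The shFTO group carried a stable short hairpin against FTO, a demethylase of N6-methyladenosine in messenger RNA, and the shNC group is labelled as its control. Both groups thus share the MG63 background. The sources used here do not give the vector, the hairpin sequence or whether a line was 1 clone.

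Polyamines (putrescine, spermidine and spermine) are small positively charged molecules that bind nucleic acids and are needed for growth. ODC1 makes putrescine from ornithine, AMD1 supplies the aminopropyl donor, and SRM and SMS use that donor to build spermidine and then spermine. SAT1 acetylates spermidine and spermine, which marks them for oxidation or export. The antizymes OAZ1 and OAZ2 bind ornithine decarboxylase and send it to the proteasome, and AZIN1, a relative of ODC1 without its enzyme activity, binds the antizymes and so spares the enzyme. DHPS and DOHH use spermidine to build hypusine, a modified lysine of the translation factor EIF5A.

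Values are FPKM, the fragments of a gene scaled by its exonic length and by the size of the library, and the whole reads behind them could be recovered. Libraries held between 93629 and 106245 reads, which is shallow, and 3208 to 3435 genes had a read in a library. The sources used here do not say whether the table holds every read that was sequenced, so depth, zeros and their limits refer to the table. FTO itself was listed at 0 in all 6 libraries. A count of 0 allows up to 3 reads, or 1.32 to 1.5 FPKM in a library, so FTO gave no check of the knockdown labels. Mesenchymal and bone lineage markers had reads in 6 of 6 genes (211 reads in shNC and 243 in shFTO), with the most reads in COL1A1, SPARC and VIM. By mean FPKM, TWIST1 came first among them (57.7). The osteoblast maturation markers ALPL, BGLAP, SPP1 and IBSP were at 0 in every library. Epithelial markers had 1 read in shNC and 7 in shFTO over 5 genes, endothelial markers had 1 and 0 over 3 genes, and blood markers had none over 4 genes. EPCAM, CDH1, KRT19, CDH5, VWF and PTPRC were at 0. KRT18 had 0, 0 and 0 reads in shNC and 3, 0 and 3 in shFTO, replicates 1 to 3. KRT8 had 1 read in each group, and PECAM1 had 1 in shNC replicate 2. The part of epithelial, endothelial or blood cells in the results was not tested. In bulk RNA, fewer cells of a type and less RNA per cell cannot be told apart.

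The antizyme genes carry a sequence that a reader of these data should have in view, because it lets polyamines set antizyme translation, a step that RNA levels do not measure. Their reading frame is interrupted by a stop codon, and ribosomes shift by a base to pass it, more often when polyamines are abundant. The window in OAZ1 lies at GRCh38 chr19:2271413-2271473 on the plus strand and that in OAZ2 at chr15:64691485-64691545 on the minus strand, both inside coding exons of GENCODE release 29. Capitals mark the codon TCC, on which the shift occurs, and the stop codon TGA after it, printed 5′ to 3′ as DNA:
OAZ1: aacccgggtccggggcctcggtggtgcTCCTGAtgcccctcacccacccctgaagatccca
OAZ2: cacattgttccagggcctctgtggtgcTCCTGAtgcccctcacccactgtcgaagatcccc
The annotation joins the frames by leaving out 1 base, the T of the stop codon, at position 2271443 in OAZ1 and 64691515 in OAZ2. The windows were identical at 49 of 61 bases, with 27 identical bases in a row around the site. In level the genes differed: OAZ2 had 212 reads (mean 46.1 FPKM) and OAZ1, of shorter exonic length, had 15 (mean 7.35 FPKM).

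Levels of the 10 genes ran from a mean of 746 FPKM to no reads. The order given here is one of FPKM by exonic length and need not be the order of RNA abundance. Reads in the table also differed with base composition (below), whose part in the levels was not tested. Together they held 4841 reads, 0.817% of all reads, and AZIN1, AMD1, SAT1 and OAZ2 held 99% of these. In the order of mean FPKM over 6 libraries, AZIN1 came first at 746 ± 44.1 (SD, n = 6), followed by AMD1 at 253 ± 23.3, SAT1 at 237 ± 45.9 and OAZ2 at 46.1 ± 15.2. AZIN1 was above AMD1 in 6 of 6 libraries, SAT1 above OAZ2 in 6 and OAZ2 above ODC1 in 6, with no overlap of ranges. AMD1 and SAT1 could not be ordered, since AMD1 was the higher in 4 libraries and their ranges overlapped. Below them, ODC1 (10.7 ± 9.91), SMS (7.73 ± 9.92) and OAZ1 (7.35 ± 6.83) overlapped one another, and DHPS had 1.19 ± 2.91. SRM and DOHH were at 0 throughout.

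**Figure D1:**
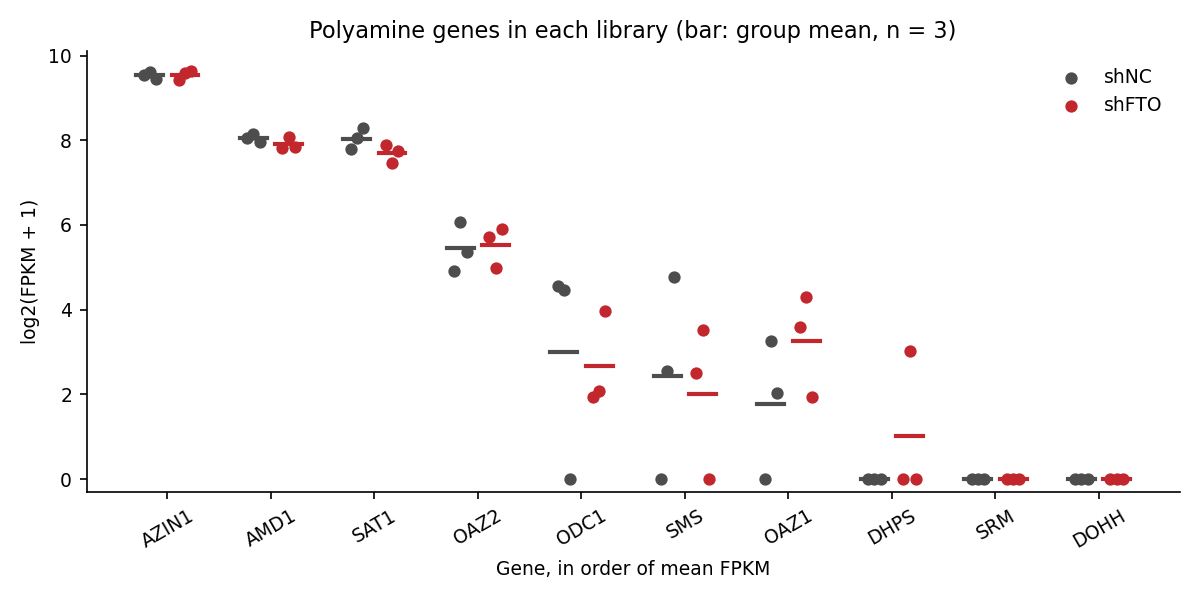
log2(FPKM + 1) of the 10 polyamine genes in each of the 3 shNC and 3 shFTO libraries, with a bar at each group mean, genes in order of mean FPKM. AZIN1, AMD1, SAT1 and OAZ2 lie above 0 in every library, while ODC1, SMS, OAZ1 and DHPS each have at least 1 library at 0, and SRM and DOHH have none above 0.

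SAT1 (ENSG00000130066, X chromosome, 23783173 to 23786210, plus strand), the catabolic acetyltransferase, stood at 222, 263 and 309.8 FPKM in shNC replicates 1, 2 and 3. In shFTO replicates 1, 2 and 3 it stood at 235, 176 and 214 FPKM. The lowest value was in shFTO replicate 2 and the highest in shNC replicate 3, and the groups overlapped, since shFTO replicate 1 lay above shNC replicate 1. Group means were 265 ± 43.9 FPKM in shNC and 208 ± 30.2 in shFTO (SD, n = 3 each), from 190 and 158 reads. The fitted log2 fold change was -0.34 (SE 0.16), a value that had a part in choosing the genes and therefore carries no test. It was -0.22 without shNC replicate 3 and -0.23 without shFTO replicate 2, the libraries at either extreme, and -0.46 without shNC replicate 1. The other genes of polyamine breakdown, SAT2, SATL1, PAOX and SMOX, were at 0 in all 6 libraries. SAT2 is a relative of SAT1, PAOX oxidises acetylated polyamines and SMOX oxidises spermine directly.

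Among the genes of synthesis, AMD1 (ENSG00000123505, chromosome 6, 110874770 to 110898879, plus strand) had 266, 283 and 248 FPKM in shNC replicates 1, 2 and 3 and 225, 268 and 228 in shFTO replicates 1, 2 and 3. The groups overlapped through shFTO replicate 2, which lay above shNC replicates 1 and 3, while the other shFTO libraries were the lowest of all 6. The means were 266 ± 17.2 in shNC and 240.3 ± 24 in shFTO (SD, n = 3), with a log2 fold change of -0.15 (SE 0.15, limma adjusted p = 0.772 over 4932 genes). Its 95% interval ran from -0.45 to 0.16 on the log2 scale.

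ODC1 (ENSG00000115758, chromosome 2, 10439968 to 10448327, minus strand), the first enzyme of the pathway and a transcriptional target of MYC, had only 21 reads. Control replicates 1, 2 and 3 had 7, 7 and 0 of them and shFTO replicates 1, 2 and 3 had 1, 1 and 5, or 22.4, 21 and 0 FPKM against 2.85, 3.21 and 14.6. The highest and the lowest values were both in shNC, so the groups overlapped. The log2 fold change was -0.34 (SE 1.26, limma adjusted p = 0.952), and single libraries decided it: it was -1.84 without shNC replicate 3, -0.99 without shFTO replicate 3, 0.43 without shNC replicate 1 and 0.39 without shNC replicate 2. Without shFTO replicates 1 and 2 it was 0.02 and -0.05. SMS, spermine synthase (ENSG00000102172, X chromosome, 21940709 to 21994837, plus strand), had 9 reads, 5 of them in shNC replicate 3. Its FPKM were 0, 4.89 and 26.4 in shNC and 4.65, 10.5 and 0 in shFTO, replicates 1 to 3, with a log2 fold change of -0.44 (SE 1.18, limma adjusted p = 0.929). The SMS estimate turned to 0.73 without shNC replicate 3 and to 0.57 without shFTO replicate 3, while it was -1.66 without shNC replicate 1 and -1.19 without shFTO replicate 2. It was -0.68 without shFTO replicate 1. For SRM, spermidine synthase (ENSG00000116649, chromosome 1, 11054584 to 11060020, minus strand), the absence of reads allows up to 14.9 to 16.9 FPKM in a single library and 2.67 FPKM over the 6 together. These limits cover counting error only.

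The regulators of ornithine decarboxylase held the most reads. AZIN1 (ENSG00000155096) had 742, 779 and 702 FPKM in shNC replicates 1, 2 and 3 and 685, 773 and 793 in shFTO replicates 1, 2 and 3, from 2709 reads in all. Both the highest and the lowest value were in shFTO, and the shNC values lay between them. The log2 fold change of AZIN1 was 0.02 (SE 0.10, limma adjusted p = 0.964) with a 95% interval from -0.18 to 0.22, the narrowest among the tested polyamine genes.

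OAZ2 (ENSG00000180304, chromosome 15, 64687573 to 64703281, minus strand) had 29, 65.8 and 40.4 FPKM in shNC replicates 1, 2 and 3. It had 51.5, 30.5 and 59.2 FPKM in shFTO replicates 1, 2 and 3. Low and high libraries occurred in both groups, so that the means were close (45.1 ± 18.8 and 47.1 ± 14.9, SD, n = 3) while the spread relative to the mean was wider than for AZIN1, AMD1 or SAT1. The log2 fold change was 0.09 (SE 0.34, limma adjusted p = 0.952), with a 95% interval from -0.59 to 0.77. It moved to -0.18 without shNC replicate 1, to -0.10 without shFTO replicate 3, to 0.40 without shNC replicate 2 and to 0.37 without shFTO replicate 2. It was 0.05 without shNC replicate 3 and 0.00 without shFTO replicate 1. OAZ1 (ENSG00000104904, chromosome 19, 2269509 to 2273490, plus strand) had 0, 3 and 1 reads in shNC and 4, 6 and 1 in shFTO, replicates 1 to 3, which is 3.92 ± 4.38 against 10.8 ± 7.88 FPKM. Its log2 fold change of 1.5 (SE 0.88, limma adjusted p = 0.772) had a 95% interval from -0.29 to 3.29, and the groups overlapped, since shFTO replicate 3 at 2.81 FPKM lay below shNC replicates 2 and 3. Without shNC replicate 1 it was 0.61, without shFTO replicate 2 it was 0.99, and without shNC replicate 2 it was 2.25.

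The spread between libraries was set against counting error as a variance ratio, in which 1 stands for counting alone. The ratio was 1.38 for SAT1, 1.75 for AMD1, 2.01 for AZIN1 and 4.68 for OAZ2, beside a median of 1.52 over 1021 genes with at least 30 reads. OAZ2 thus stood at percentile 95.6 of these genes, whereas SAT1 stood at percentile 44.3. Of the wider pathway lists, EIF5A (ratio 5.75) stood at percentile 97.8, MAT2A at 89.1, AHCYL1 at 73.7 and MAX at 39.7. Per exonic length, AZIN1 exceeded OAZ2 by 11.8 to 25.6 times across the libraries and AMD1 by 2.75 to 3.48 times. The exonic lengths of AZIN1, AMD1 and OAZ2 were 6130, 10193 and 7671 bases. Their coding transcripts with the longest reading frame had 4721, 3438 and 1934 bases. The size of a ratio between genes therefore depends on the length used. The ratio of AZIN1 to AMD1 was 2.79, 2.75 and 2.83 in shNC replicates 1, 2 and 3 and 3.04, 2.89 and 3.48 in shFTO replicates 1, 2 and 3, and the groups did not overlap. This ratio was singled out after its values were seen, and the groups did not overlap in 6.97% of the ratios of AZIN1 to 703 genes. AMD1 and SAT1 had a ratio from 0.802 to 1.53.

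**Figure D2:**
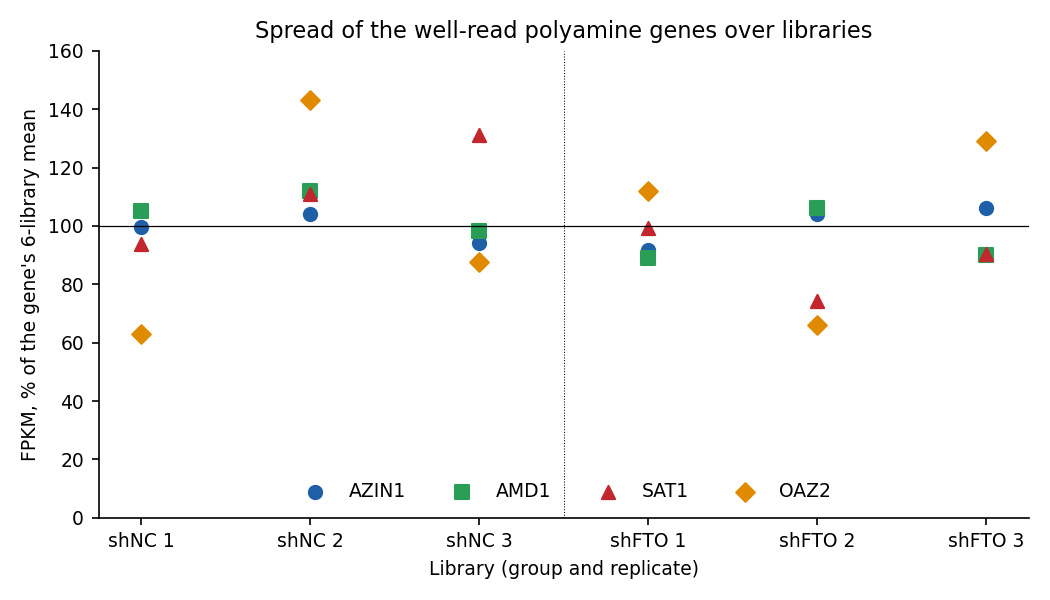
FPKM of AZIN1, AMD1, SAT1 and OAZ2 in each library as a percentage of the gene's own mean over 6 libraries, with shNC left and shFTO right of the dotted line. OAZ2 runs from 63% to 143% of its mean and SAT1 from 74.2% to 131%, while AZIN1 stays between 91.8% and 106%.

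The genes of hypusine formation were nearly unread, in contrast to EIF5A RNA, which codes for the protein they act on. DHPS, deoxyhypusine synthase (ENSG00000095059, chromosome 19, 12675717 to 12681880, minus strand), had 2 reads, both in shFTO replicate 2 (7.12 FPKM), and passed the filter on low values only through that library. Its log2 fold change of 1.01 (SE 0.93, limma adjusted p = 0.772) rests on that library alone. DOHH, deoxyhypusine hydroxylase (ENSG00000129932, chromosome 19, 3490821 to 3500674, minus strand), was at 0 in all 6 libraries, which allows up to 2.39 FPKM over the 6. EIF5A had 9162 reads, 1.55% of all, with 5924 ± 438 FPKM in shNC and 5605 ± 242 in shFTO (SD, n = 3), a log2 fold change of -0.08 (SE 0.05, limma adjusted p = 0.772). EIF5AL1, a copy of EIF5A elsewhere in the genome, had 34 reads (log2 fold change -0.35, SE 0.52, limma adjusted p = 0.837), an uncertain value because the counting could split reads between such copies.

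Across all 10 genes, 8 had reads and passed the filter (group mean of 1 FPKM or more in either group). Leaving aside SAT1, chosen in part for its difference, and DHPS, which passed only through the group where it has reads, limma called 0 of the other 6 (ODC1, AMD1, SMS, AZIN1, OAZ1 and OAZ2), where it called 0.0406% of 4932 genes (2, both lower in shFTO). Before adjustment, 3.85% of the tested genes had a limma p under 0.05. A quasi-Poisson fit to the recovered reads of 1021 genes called none after adjustment, with 54 genes (5.29%) under 0.05 before it. The groups overlapped for all 6 of these genes, where they did not for 6.59% of the genes tested and 9.79% of those with a mean of 10 reads or more. SRM and DOHH, without reads, could not be tested.

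**Figure D3:**
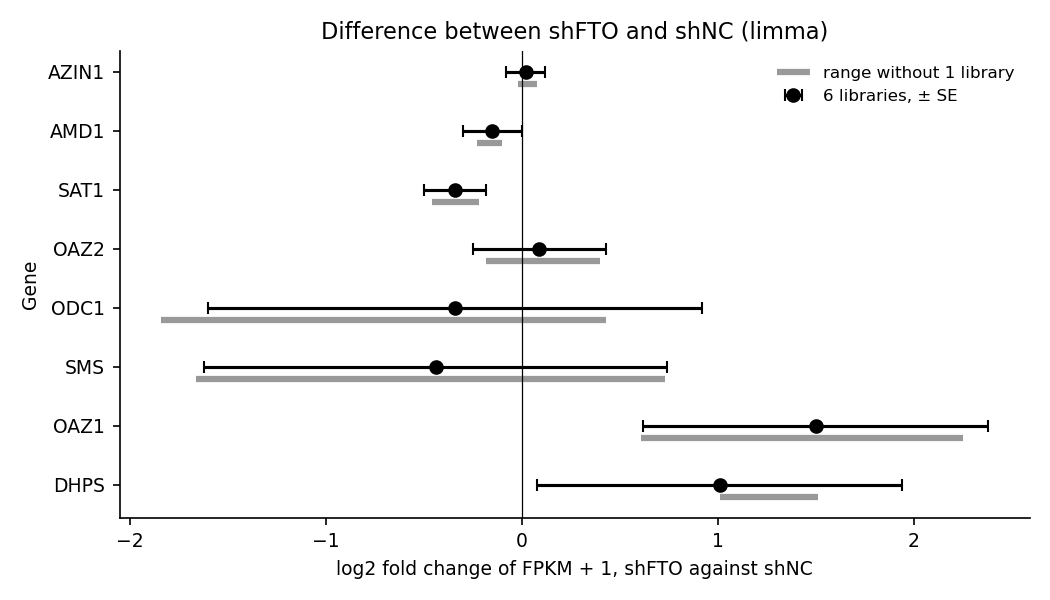
Log2 fold change of FPKM + 1 between shFTO and shNC for the 8 polyamine genes with reads, as points with ± SE from limma over 6 libraries, and grey bars for the range when 1 library is left out. AZIN1, AMD1 and SAT1 have SEs of 0.10 to 0.16, while those of ODC1 and SMS pass 1. The grey bars of ODC1, SMS, OAZ2 and AZIN1 cross 0.

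Wider lists of the pathway, 67 genes including these 10, had 0 calls in either direction among 25 tested. Over all 4932 genes tested, 0.0406% were called. The median log2 fold change was 0.00 beside 0.00 over all genes tested. The 25 include SAT1, chosen in part for its difference. DHPS, AHCY, ADI1, MYC and PMF1 had reads in 1 group only. ALDH18A1, SLC3A2, SLC7A1 and SLC47A1 reached a mean of 1 FPKM in 1 group only. For these genes the absence of a call is no result, also in the counts by list below. Reads were found for 30 of the 67 genes. In the methionine cycle, which feeds the aminopropyl donor, 8 of 15 genes had reads and 0 of 5 tested were called. MAT2A, the enzyme that makes S-adenosylmethionine, had 299.9 ± 35.2 FPKM in shNC and 307 ± 59.5 in shFTO (SD, n = 3; log2 fold change 0.02, SE 0.15, limma adjusted p = 0.982). AHCYL1, a relative of adenosylhomocysteinase, had 768 ± 79 and 763 ± 32.7 FPKM (log2 fold change 0.00, SE 0.10, limma adjusted p = 1). AHCY, the adenosylhomocysteinase gene itself, had only 2 reads, both in shFTO replicate 2, and MTR had 1 read in that library. The salvage enzyme MTAP, which clears the by-product of spermidine and spermine synthesis, was at 0 in all 6 libraries. The arginase genes ARG1 and ARG2, which supply ornithine, were at 0 as well.

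Of 14 transport genes 5 had reads and 0 of 4 tested were called. ATP13A3, a polyamine pump of endosomal membranes, had 5, 6 and 6 reads in shNC and 3, 5 and 3 in shFTO, replicates 1 to 3, or 2.58 ± 0.246 and 1.61 ± 0.621 FPKM (log2 fold change -0.48, SE 1.01, limma adjusted p = 0.901). Of 8 ornithine and proline genes, OAT had 7 reads and ALDH18A1 had 5, and 0 of 2 tested were called. Among 8 transcription factors and partners, 0 of 4 tested were called. MAX, the partner of MYC, had 61.3 ± 16 and 70.4 ± 2.34 FPKM (log2 fold change 0.23, SE 0.27, limma adjusted p = 0.772), while MYC had 0 reads in shNC and 2 in shFTO. NFE2L2, the NRF2 gene, had 2 reads, both in shNC replicate 2. The 9 listed pseudogenes of the polyamine genes were at 0 in every library.

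The level of the polyamine genes ran with their base composition, with SRM and DOHH tied without reads. This comparison was not among those planned. In the coding transcript with the longest reading frame, the share of codons with G or C at the third position was 34.3% in AZIN1, 43.6% in AMD1, 52.3% in SAT1 and 60% in OAZ2. The share was 73.4% in OAZ1, 76.5% in DHPS, 86.5% in SRM and 89.4% in DOHH. ODC1 (47.6%) and SMS (48.8%) lay between AMD1 and SAT1 in composition but had far fewer reads. Over the 10 genes, Spearman's rho between this share and mean FPKM was -0.90, and over 19515 protein-coding genes it was -0.18, both across genes of the same 6 libraries and not across independent replicates. With the GC content of the whole transcript it was -0.94 and -0.15, and with the length of the 3′ untranslated region 0.69 and 0.20. In the fifth of coding genes with the lowest share (21.3% to 43.3%), 7.9% had a mean of 10 reads or more and the genes held 54.5% of coding reads. In the fifth with the highest share (76% to 98.8%), which holds DHPS, SRM and DOHH, 0.797% had a mean of 10 reads or more and the genes held 2.54% of coding reads. EIF5A had a share of 60.4% and the highest level among the pathway genes. The part of composition in the levels was not tested.

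The first 60 coding bases of 2 enzymes read in every library and 2 read in none show the contrast, with capitals for G or C at the third codon position, 5′ to 3′ on the coding strand, from the GENCODE release 29 transcripts:
AMD1: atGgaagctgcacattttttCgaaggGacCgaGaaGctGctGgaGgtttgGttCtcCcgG
SAT1: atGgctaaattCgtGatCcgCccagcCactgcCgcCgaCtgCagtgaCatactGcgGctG
SRM: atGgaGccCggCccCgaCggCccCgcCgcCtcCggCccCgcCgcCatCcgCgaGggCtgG
DOHH: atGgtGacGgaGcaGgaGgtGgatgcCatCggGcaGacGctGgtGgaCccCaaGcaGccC
Of these 20 codons, 13 ended in G or C in AMD1, 14 in SAT1, 20 in SRM and 19 in DOHH. AMD1 and SAT1 were read in every library, and SRM and DOHH in none. Over the whole reading frame the share was lower in AMD1 (43.6%) and SAT1 (52.3%), so these windows do not stand for their frames. ODC1 (47.6%) and SMS (48.8%), not printed, had only 21 and 9 reads with shares between those of AMD1 and SAT1.

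**Figure D4:**
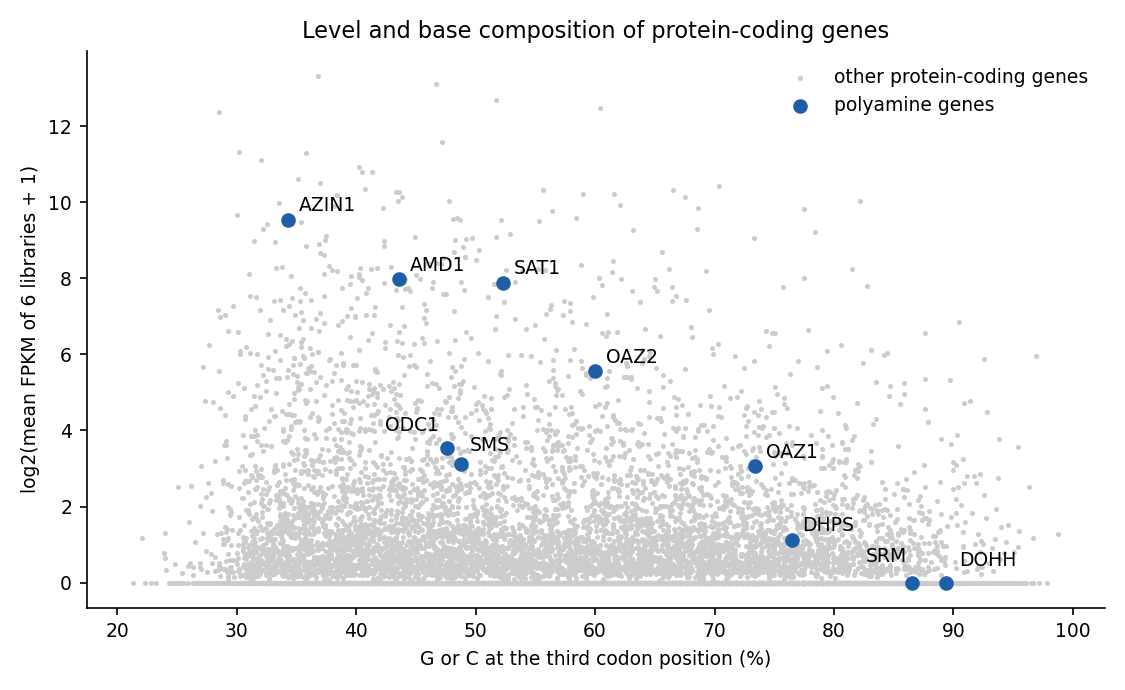
Mean FPKM over 6 libraries, as log2(FPKM + 1), against the percentage of codons with G or C at the third position, for 19515 protein-coding genes (grey) and the 10 polyamine genes (blue, labelled). The polyamine genes run from AZIN1 at 34.3% and 746 FPKM to SRM and DOHH at 86.5% and 89.4% with no reads.

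Among 704 other genes averaging 10 reads or more, those whose log2(FPKM + 1) followed SAT1 most closely over the 6 libraries were CELF2 (Pearson r = 0.978), ERI3 (r = 0.934) and NDFIP1 (r = 0.914), and 6 genes reached 0.9. CELF2, an RNA-binding splicing regulator, had 14.4, 23.3 and 26.2 FPKM in shNC replicates 1, 2 and 3 and 16.2, 7.71 and 14 in shFTO. The likeness rests on 6 values taken from the same libraries and is a description.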

How the data were processed

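Poly(A) RNA of 6 libraries was sequenced strand-specifically, per the labels' protocols and the series' design text. The submitters' processing notes list HISAT2 2.2.1, StringTie 1.3.3b, HTSeq 0.6.1, DESeq2 1.50.2, FastQC 0.10.1 and the build GRCh38. The sources used here do not give their order, the annotation or the counting's strand setting. The authors deposited FPKM and the exonic length of each gene, per the file headers, with FPKM to 2 decimals. Library columns were matched to samples by the group prefix and number in their names.

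Whole reads were recovered by searching library totals from 20000 to 200000 at which FPKM times length was whole: 100% of values above 0 were whole within 0.05 read. The main test was limma 3.58.1 (R 4.3.3, trend and robust moderation, group only) on log2(FPKM + 1). It covered the 4932 genes whose mean reached 1 FPKM in either group, Benjamini-Hochberg adjusted over all of them and called under 0.05. Fold changes on this scale understate the change of low genes. Alternatives were no filter, a filter at a mean of 10 reads, a pseudocount of 0.1, median-of-ratios scaling, limma-voom, a quasi-Poisson fit to recovered reads, a replicate block and each library left out in turn. The fits were tested on simulated data.

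Base composition came from GENCODE release 29 (GRCh38), in which 10 of 10 polyamine genes were matched, with summaries in Python 3.11.15. The genes and lists were chosen with earlier results of these data known. Named were the 10 genes, list genes with at least 10 reads, any called list gene, pseudogenes with reads, the 3 genes most like SAT1, and FTO. Other list genes, markers and the ratios were named after their values were seen. Base composition and the sequence windows were not among the planned results. P-values measure the spread between 3 libraries a group, labelled as biological replicates.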

Additional observations from a re-analysis of the deposited data

How the results depend on the processing

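Without 1 library the log2 fold change of SAT1 ran from -0.46 to -0.22, values of a gene chosen in part for this difference. AMD1 kept its direction in 13 alternatives (-0.23 to -0.10 without 1 library), and the pathway lists gave 0 calls in each. OAZ1 kept its direction in the 11 alternatives that gave it a value (0.61 to 2.25 without 1 library). DHPS, read in shFTO replicate 2 alone, could not fall below 0, and without that library it has no value. Without 1 library the estimate ran from -1.84 to 0.43 for ODC1, from -0.18 to 0.40 for OAZ2, from -0.02 to 0.08 for AZIN1 and from -1.66 to 0.73 for SMS. With a pseudocount of 0.1 FPKM the ODC1 estimate was 0.53 in place of -0.34, since shNC replicate 3 is at 0. The count of called genes, 2 in the whole table, was 7 with a pseudocount of 0.1 FPKM, 9 with no filter, 0 with a mean of 10 reads or more per library (fewer genes tested), 11 in limma-voom and 0 in the quasi-Poisson fit (54 under 0.05 before adjustment), and ran from 2 to 9 without 1 library (9 without shNC replicate 2, 8 without shFTO replicate 1, 7 without shNC replicate 3, 3 without shNC replicate 1 or shFTO replicate 3); the cause was not tested. With the replicate number as a block it was 17. Correlations of same-numbered deviations were 0, 0.04 and -0.01. At these read counts much of the deviation is counting error, so the correlations cannot decide whether the numbers pair the libraries. The block changed no call among the polyamine genes. ODC1, OAZ1, SMS and DHPS had too few reads for the fit that needs 30. At this depth a difference in SRM or DOHH was not detectable.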

Other observations

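OAZ2 levels split the libraries at 100000 reads. The 3 libraries with over 100000 reads, shNC replicate 2 and shFTO replicates 1 and 3, had the 3 highest OAZ2 values (65.8, 51.5 and 59.2 FPKM), and the others had 29, 40.4 and 30.5. The largest library had the lowest of the 3 upper values (51.5 FPKM) and the smallest had the highest of the 3 lower values (40.4 FPKM). Of the 705 genes averaging 10 reads or more, 38 (5.39%) were split upward in this way and 29 (4.11%) downward. AZIN1, AMD1 and SAT1 were not split so. The split was noticed after the values were seen, and the part of library size in the OAZ2 levels was not tested.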
